A study of Saccharomyces cerevisiae with 4 samples.

Results

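The genes described here encode the proteasome of budding yeast (Saccharomyces cerevisiae), together with RPN4, the gene of the transcription factor that acts on them. They were chosen by name: 34 of the 7126 genes in the expression table have a symbol made of PRE, PUP, SCL, RPN or RPT and a number. Of these, 14 are core genes (PRE, PUP and SCL1), 6 are RPT genes and 14 are RPN genes, and the last set includes RPN4 and the chaperone gene RPN14, so that 32 members are structural subunits. Poly(A) RNA was sequenced from a strain labelled T4V, in which valine replaces threonine 4 in the repeats of the CTD, the C-terminal tail of RNA polymerase II, and from a wild-type strain (WT), with 2 libraries of each genotype. The series asks how this threonine couples transcription to remodelling of chromatin that involves the histone variant Htz1. No source used here gives the strain background, the medium or the growth phase, and nothing in the labels says that the libraries of a genotype came from separate cultures, so p-values measure the spread between these libraries, which may be technical.

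The proteasome degrades proteins that carry ubiquitin chains. Its core particle is a stack of rings of alpha and beta subunits, with the proteolytic sites on the beta subunits facing inwards. A regulatory particle caps the core: its base holds a ring of ATPases that unfold substrates, and its lid holds the enzyme that removes ubiquitin. In yeast, Rpn4 binds a promoter element called PACE (proteasome-associated control element) upstream of most subunit genes, and Rpn4 itself is a short-lived substrate of the proteasome, which makes a feedback loop. RNA levels of these genes are known to move together in yeast when the proteasome is impaired.

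PACE has the letters GGTGGCAAA. These 9 letters were searched on both strands in the 300 bases around each annotated start codon, from 250 bases before it to 50 bases from it, in the R64 assembly of RefSeq (the release behind sacCer3). The search covered 6001 protein-coding genes, of which 72, or 1.2%, held the motif. Of the 34 proteasome genes 27, or 79.4%, held it, each exactly once. The first base of the match lay 84 to 183 bases upstream of the start codon, with a median of 120, and 19 of the 27 matches ran on the strand of the gene and 8 on the other. No match overlapped one to another motif searched. The genes without an exact match were RPN4, RPN14, PRE5, PUP1, RPN8, RPN13 and RPN10. The last 5 of these are subunit genes, and each held a version with 1 letter changed, which 6.42% of all windows also did, so each of the 32 subunit genes had PACE or a neighbour of it. RPN4 and RPN14 had neither in this window. A match is a description of the letters and not of binding.

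The sites of the 8 genes that were higher in T4V and had an exact match are shown first, followed by the 5 subunit genes whose match has 1 letter changed. The 8 were picked by their call, and the 19 other genes with an exact match were not called. Capitals mark the match, written 5′ to 3′ on the strand of the gene, so that a match on the other strand reads TTTGCCACC.
RPT3: ctgaaagtaaGGTGGCAAAatagtaaatc
PRE7: aaactcaaagGGTGGCAAAaacaagcggt
PUP3: tggcactgccGGTGGCAAAaaagtgcaaa
RPN2: atttattttcGGTGGCAAAactggataca
PRE3: aacggaatccGGTGGCAAAaaagggaaaa
PRE6: cgaagattctTTTGCCACCggaagggaaa
SCL1: cacacaccaaTTTGCCACCgtaaggatag
RPT1: attaccgaatTTTGCCACCcgaaaactaa
PUP1: aacccggccgAGTGGCAAAataccaaaaa
PRE5: cctattatagAGTGGCAAAattaaaaatt
RPN8: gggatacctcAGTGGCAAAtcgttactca
RPN13: ttattcgcgaGGTGGCGAAagctttgcta
RPN10: caggcgggttTTCGCCACCggaatttaca

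PUP1, PRE5 and RPN8 shared the same changed first letter. RPN13 and RPN10 shared another change, near the end of the motif, on opposite strands. PRE6 also held GGTAGCAAA, a changed copy nearer its start codon.

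For the gene that was lower in T4V, RPN10, and for RPT3, whose fold change was the highest among the subunit genes, the whole window is printed, again with the match in capitals. The RPN10 window is chrVIII:498829-499128 on the plus strand and the RPT3 window is chrIV:1261431-1261730 on the plus strand, both in R64.
RPN10: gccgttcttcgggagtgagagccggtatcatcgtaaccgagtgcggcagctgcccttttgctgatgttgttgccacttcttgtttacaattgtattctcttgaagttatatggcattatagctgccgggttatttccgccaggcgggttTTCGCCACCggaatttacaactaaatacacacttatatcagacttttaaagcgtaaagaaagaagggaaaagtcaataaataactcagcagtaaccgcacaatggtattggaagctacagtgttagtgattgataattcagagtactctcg
RPT3: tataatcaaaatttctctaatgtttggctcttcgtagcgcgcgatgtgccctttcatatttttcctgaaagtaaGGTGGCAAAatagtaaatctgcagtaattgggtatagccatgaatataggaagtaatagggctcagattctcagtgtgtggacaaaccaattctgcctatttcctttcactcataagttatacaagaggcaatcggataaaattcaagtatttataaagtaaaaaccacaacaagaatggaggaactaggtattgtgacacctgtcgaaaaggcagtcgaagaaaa

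**Figure D1:**
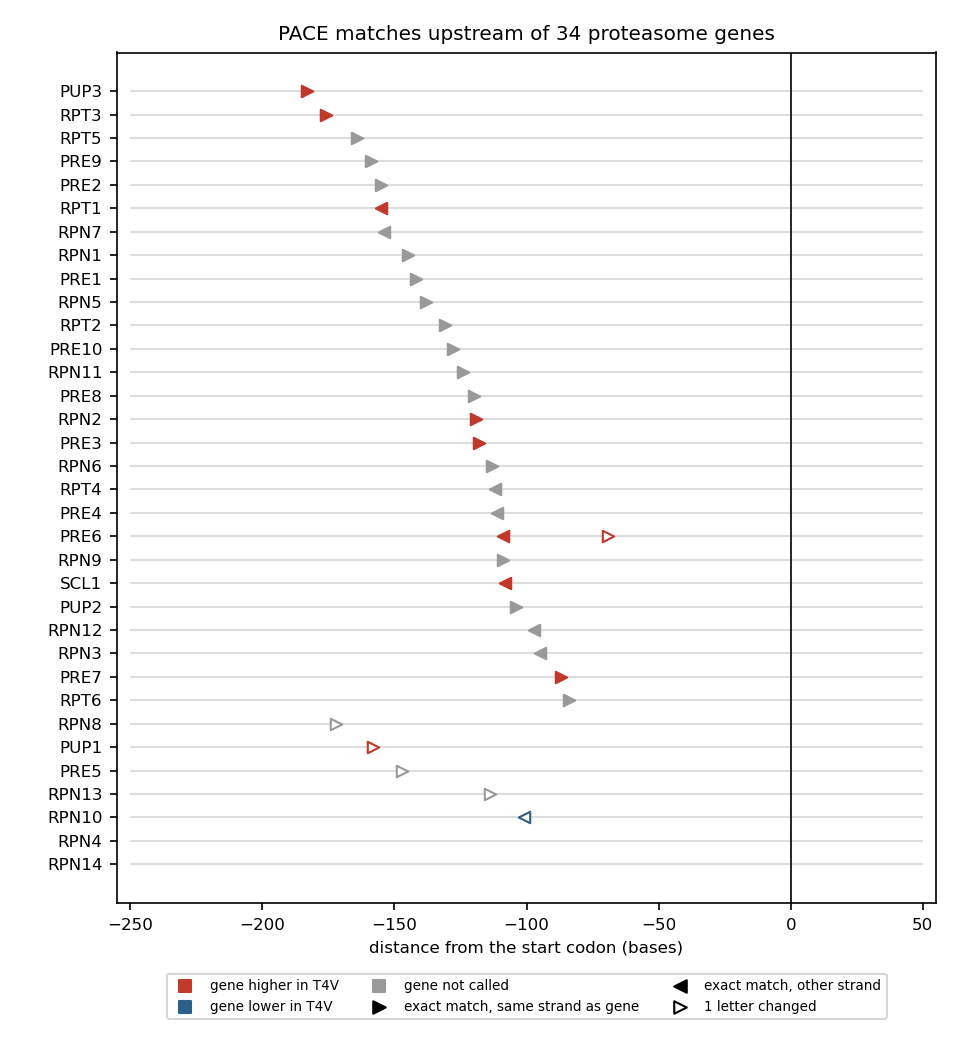
Position of PACE matches in the window around the start codon, 1 line per proteasome gene, with the distance from the start codon in bases on the horizontal axis. Filled arrowheads are exact matches and open ones have 1 letter changed, the arrow gives the strand, and the colour gives the call of the gene; the exact matches of 27 genes lie between 84 and 183 bases upstream.

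Letters bound by the factors that act on RPN4 were searched in the same windows. TCCGCGGA, the element of Pdr1 and Pdr3, was found in 0.217% of all windows and in 1 proteasome gene, RPN11, where it lay within the coding part. TTACTAA, bound by Yap1, was, on either strand, in 7.45% of all windows and in 3 proteasome genes, PRE5, RPN7 and RPN8. RPN4 held none of these letters in this window.

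The levels below are RPKM as the authors deposited them, which scale reads by gene length and library size, so levels of different genes can be set beside each other. The library sizes behind the RPKM scale, worked back from its steps, were 3355000 and 4261000 reads in T4V libraries A and B. They were 3654000 to 4068000 in the WT libraries, and for a gene of 1 kb each read stood for 0.235 to 0.298 RPKM. A subunit gene had at least 140 reads in each library. RPN14 had 42 and 68 reads in the T4V libraries and 53 and 50 in the WT libraries. RPKM does not show the base change, so each genotype rests on its label. In bulk RNA, a share of cells with more of an RNA and more of it in each cell cannot be told apart.

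Across the 32 subunit genes, the summed RPKM was 10199 and 9780 in the T4V libraries, against 9173 and 9348 in the WT libraries, and the groups did not overlap. Core genes together had 4955 and 4714 RPKM in T4V, against 4236 and 4493 in WT. The RPT genes together had 2079 and 2081 RPKM in T4V, against 1821 and 1843 in WT. For the 12 RPN subunit genes the groups overlapped, with 3165 and 2985 RPKM in T4V and 3116 and 3012 in WT. That sum holds RPN10, the most abundant subunit RNA in WT. Without RPN10, the remaining 31 subunit genes came to 9556 and 9126 RPKM in T4V, against 8237 and 8522 in WT. These sums keep the deposited scaling and were not made under any other. The median log2 fold change (T4V minus WT) of the 32 genes was 0.15 with that scaling. It was 0.089 after median-of-ratios scaling and 0.085 after quantile normalization, both taken up below. Of all genes tested, 38.6% had both T4V libraries above both WT libraries.

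The order of the subunit RNA levels was nearly the same in both genotypes, with a Spearman rho of 0.99 over the 32 genes. It is a description of genes that share the same libraries. Levels were far from equal between subunits: the highest mean was 8.27 times the lowest in T4V and 12.7 times in WT. In T4V the top genes were SCL1, RPN10, RPN6 and PRE10, and in WT they were RPN10, SCL1, PRE10 and PRE5, while RPN1, RPN11 and RPN13 were at the bottom in both. RPN4 and RPN14 lay below every subunit gene.

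**Figure D2:**
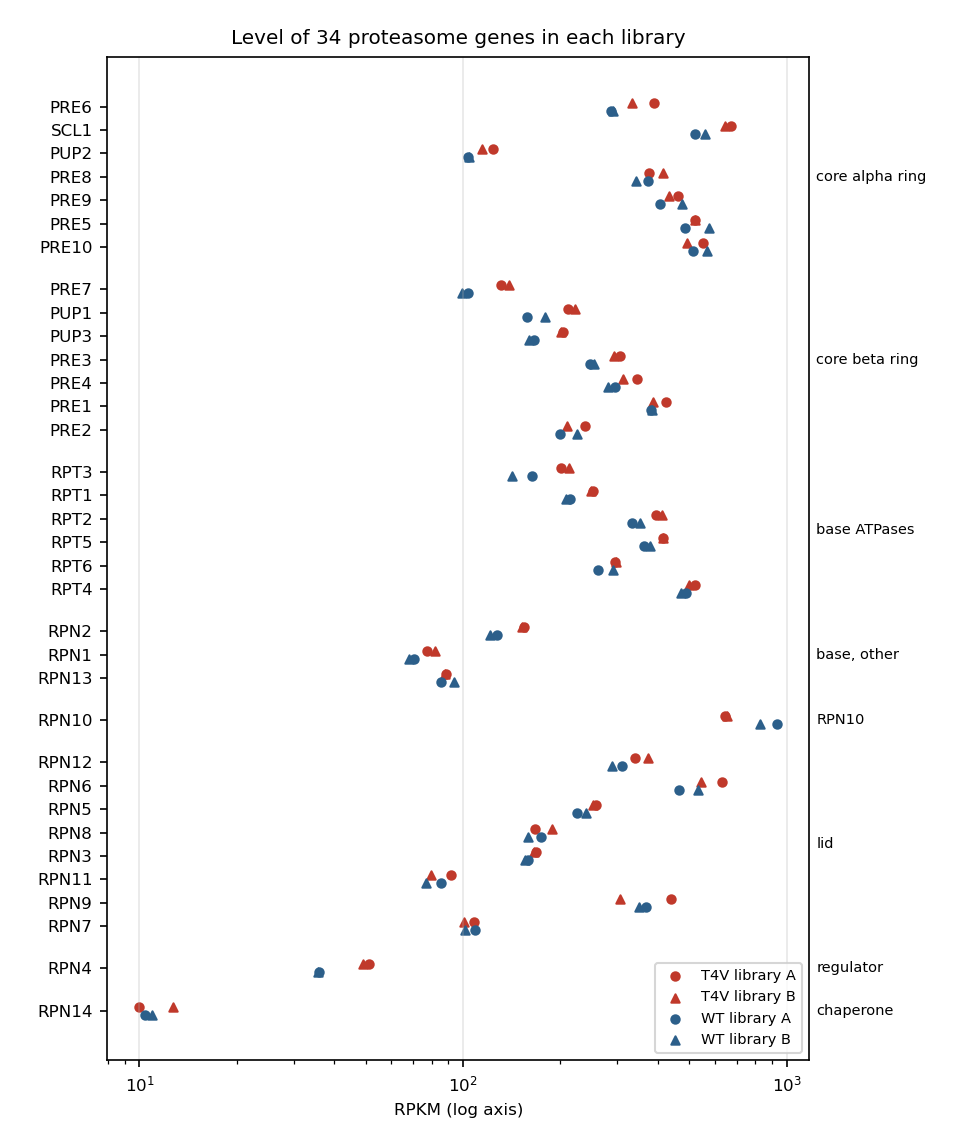
RPKM on a log axis of each of the 34 proteasome genes in T4V libraries A and B and WT libraries A and B, grouped by their place in the complex. RPN10 stands at 643 and 654 RPKM in T4V and at 936 and 826 in WT, and RPN4 at 51.2 and 49.0 in T4V and 35.9 and 35.7 in WT.

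Of the 34 genes 10 rose and 1 fell in T4V, by limma on log2(RPKM + 1) across all genes with a Benjamini-Hochberg adjusted p under 0.05. Over all 5935 genes tested, 11.7% were called higher and 6.25% lower. Both T4V libraries lay above both WT libraries for 23 of the 34 genes, as they did for 38.6% of all genes tested, and below for 1, as they did for 23.4%. The median log2 fold change (T4V minus WT) of the 34 genes was 0.15, beside 0.07 over all genes tested. It was above 0 for 29 of the 34 genes, as it was for 59.4% of all genes tested. All 34 genes passed the filter on low values. Counts over these genes are a description, since subunits of 1 complex share the same 4 libraries and are not replicates.

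The number of calls depended on how the libraries were scaled. After median-of-ratios scaling 4 of the 34 genes were called higher (8.61% of all genes) and 1 lower (8.48%), and after quantile normalization 3 higher (7.63%) and 1 lower (7.55%). PRE7 and RPN4 were called higher under both, RPT3 and PUP3 under the first and SCL1 under the second, and RPN10 was the gene called lower under both. These scalings moved the median of all genes by -0.06 and -0.08, and split the calls over all genes into 511 higher and 503 lower and into 453 and 448, against 692 and 371 with the deposited scaling. With voom on the recovered reads 14 of the 34 were called higher (17.9% of all genes) and 1 lower (10.4%). At an unadjusted p under 0.05 with all libraries, 15 of the 34 were higher, as were 21.9% of all genes tested, and 1 was lower, as were 11.8%. When either T4V library was left out, limma called 0 of the 34 genes in either direction, and few of all genes tested: 10 higher and 6 lower with T4V library A left out, 17 higher and 10 lower with T4V library B left out. Without WT library A 3 of the 34 were called higher and without WT library B 2, each with 1 lower, and over all genes 483 and 501 were higher and 228 and 245 lower. In these fits the lone library of a genotype is assumed to vary like those of the other genotype. These values keep the 5935 genes tested with all libraries; with the filter on low values applied again to the libraries left, a choice made after seeing the data, 1 to 6 were called higher and 1 lower.

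RPN4 (YDL020C), on chromosome IV at 415113 to 416708, encodes the activator of the subunit genes. It had 51.2 and 49.0 RPKM in the T4V libraries, against 35.9 and 35.7 in the WT libraries. Both T4V values were above both WT values, and the libraries of each genotype lay close together. RPN4 rose by a log2 fold change of 0.47 ± 0.09 (SE), at a limma adjusted p of 0.0187. The ratio of means was 1.40, the highest of the 34 genes. Its call held after median-of-ratios scaling (adjusted p = 0.0291), after quantile normalization (0.0318) and with voom (0.0011), and was lost without the variance trend (0.0508) and when any 1 library was left out (0.0565 to 0.158). With the filter applied again, RPN4 stayed a call without WT library A (0.0392) or B (0.0401) and lost it without T4V library A (0.0821) or B (0.0527).

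The alpha ring of the core is built from 7 subunits, of which SCL1 and PRE6 rose, where 11.7% of all genes rose. Calls in this ring numbered 0 after median-of-ratios scaling and 1 after quantile normalization, where 8.61% and 7.63% of all genes were higher. SCL1, the first alpha subunit, had 671 and 645 RPKM in T4V, against 521 and 559 in WT, a log2 fold change of 0.28 ± 0.06 (SE) and a limma adjusted p of 0.0268. SCL1 was the most abundant subunit RNA in T4V. PRE6, the fourth alpha subunit, had 389 and 332 RPKM in T4V and 287 and 290.4 in WT. Its log2 fold change of 0.32 ± 0.09 (SE) had a limma adjusted p of 0.0496, at the edge of the threshold. PRE6 lost its call under both other scalings, with a pseudocount of 0.1, without a filter and with a robust variance trend. With the tested genes kept the same, PRE6 also lost it whichever library was left out. The groups did not overlap for SCL1 and PRE6, nor for PUP2 and PRE8.

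The other alpha genes did not pass the test. PUP2 had 124 and 115 RPKM in T4V and 104 in both WT libraries (log2 fold change 0.19, adjusted p = 0.134). PRE8 had a log2 fold change of 0.15 (adjusted p = 0.242). PRE9, the alpha subunit that yeast cells can live without, was at 0.03, PRE5 at -0.02 and PRE10, the last alpha subunit, at -0.05. PRE10 had 551 and 492 RPKM in T4V and 513 and 566 in WT, so that the genotypes overlapped.

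In the beta ring, 4 of the 7 genes rose, namely PRE7, PUP1, PUP3 and PRE3, where 11.7% of all genes rose. Calls in the ring numbered 2 after median-of-ratios scaling and 1 after quantile normalization, where 8.61% and 7.63% of all genes were higher. PRE7 (YBL041W, chromosome II), a beta subunit without a proteolytic site, had 131 and 139 RPKM in T4V, against 104 and 99.1 in WT, a log2 fold change of 0.41 ± 0.08 (SE) and a limma adjusted p of 0.0152. PUP1, the subunit with the trypsin-like site, had 211 and 222 RPKM in T4V, against 157 and 179 in WT. Its log2 fold change was 0.37 ± 0.09 (SE) and its limma adjusted p 0.0296, and PUP1 lost its call after median-of-ratios scaling (0.0532) and quantile normalization (0.079). For both genes the T4V libraries were the higher ones, with no overlap.

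PUP3, which has no proteolytic site, had 204 and 201 RPKM in T4V, against 165 and 159.8 in WT, a log2 fold change of 0.32 and a limma adjusted p of 0.0211. PRE3, the subunit with the caspase-like site and the 1 proteasome gene with an intron, had 306 and 293 RPKM in T4V, against 247 and 255 in WT (log2 fold change 0.25, adjusted p = 0.0399). PRE3 lost its call under both other scalings (0.0915 and 0.0809) and whichever library was left out. The third proteolytic subunit, PRE2, with the chymotrypsin-like site, did not pass the test. It had 238 and 210 RPKM in T4V and 199 and 225 in WT, with overlapping groups, and a log2 fold change of 0.08 whose 95% interval ran from -0.14 to 0.30. PRE4 and PRE1 had log2 fold changes of 0.19 and 0.08 and adjusted p of 0.127 and 0.46.

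The RPT genes encode the ATPase ring of the base, and all 6 had both T4V libraries above both WT libraries, as did 38.6% of all genes tested. RPT3 and RPT1 passed the test, where 11.7% of all genes rose. Calls in the ATPase ring numbered 1 after median-of-ratios scaling and 0 after quantile normalization, where 8.61% and 7.63% of all genes were higher. RPT3 (YDR394W), on chromosome IV, had 201 and 212 RPKM in T4V, against 163 and 141 in WT, a log2 fold change of 0.44 ± 0.09 (SE) and a limma adjusted p of 0.019. RPT1 had 252 and 248 RPKM in T4V, against 214 and 208 in WT (log2 fold change 0.24, adjusted p = 0.0424). RPT1 lost its call under both other scalings (0.105 and 0.135) and whichever library was left out. RPT2, which helps to open the gate of the core, had 396 and 410 RPKM in T4V and 332 and 353 in WT, and narrowly missed the threshold (log2 fold change 0.23, adjusted p = 0.0515). RPT5, RPT6 and RPT4 had log2 fold changes of 0.16, 0.10 and 0.09 and adjusted p of 0.118, 0.37 and 0.365. RPT4 was the most abundant of the ring, with 521 and 498 RPKM in T4V and 487 and 471 in WT.

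Among the other base genes, RPN2 rose. RPN2, a large scaffold protein, had 154 and 153 RPKM in T4V, against 127 and 121 in WT, a log2 fold change of 0.30 ± 0.07 (SE) and a limma adjusted p of 0.0317. RPN2 lost its call under both other scalings (0.0673 and 0.0834) and, with the tested genes kept the same, whichever library was left out. RPN1, the other large scaffold, had 77.3 and 82.0 RPKM in T4V and 70.3 and 68.3 in WT (log2 fold change 0.20, adjusted p = 0.151). RPN13, a ubiquitin receptor, had 88.6 and 88.2 RPKM in T4V and 85.6 and 93.5 in WT, with a log2 fold change of -0.02 and overlapping groups.

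RPN10 (YHR200W), on chromosome VIII, was the 1 proteasome gene that fell. It encodes a ubiquitin receptor that sits between base and lid and also exists free of the proteasome. RPN10 had 643 and 654 RPKM in T4V, against 936 and 826 in WT. Both T4V libraries lay below both WT libraries, and the WT libraries differed more from each other than the T4V libraries did. RPN10 fell by 0.44 ± 0.07 (SE) on the log2 scale, at a limma adjusted p of 0.0106, and the ratio of means was 0.736. Its share of the summed RPKM of the 32 subunit genes was 6.31% and 6.69% in T4V, against 10.2% and 8.84% in WT.

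The fall of RPN10 stayed a call under both other scalings (adjusted p of 0.00677 and 0.00816) and with voom (4.65e-06). It was lost without the variance trend (0.0817) and without T4V library A (0.132) or B (0.125). With the filter applied again, RPN10 stayed a call without T4V library A (0.0291) or B (0.0234). The next gene downstream, PPX1, an exopolyphosphatase gene that faces RPN10 across 64 bases, also fell. PPX1 had 24.7 and 24.6 RPKM in T4V, against 52.9 and 42.2 in WT, a log2 fold change of -0.91 and a limma adjusted p of 0.00673. Whether the authors counted by strand was not given in the sources used here, and the part of reads from the neighbouring gene in either value was not tested.

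Of the 8 lid genes that the name pattern holds, 0 were called by limma. The lid subunit gene SEM1, outside the pattern, was called higher and is described below. Before adjustment (limma p under 0.05), 1 of the 8, RPN12, was higher and 0 were lower, where 21.9% of all genes were higher and 11.8% lower. By voom, RPN6 and RPN12 rose, as did 17.9% of all genes. RPN12 had 341 and 373 RPKM in T4V and 311 and 288 in WT (log2 fold change 0.25, limma adjusted p = 0.0648). RPN6 had 631 and 542 RPKM in T4V and 466 and 532 in WT (log2 fold change 0.23, limma adjusted p = 0.149). RPN5 and RPN3 also had groups that did not overlap, with log2 fold changes of 0.13 and 0.08. RPN11, the enzyme that cuts ubiquitin from substrates, had 91.9 and 79.5 RPKM in T4V and 85.4 and 76.9 in WT, and a log2 fold change of 0.08 with a 95% interval of -0.17 to 0.32.

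RPN9 had the widest spread between libraries of any subunit gene. It had 438 and 306 RPKM in T4V, a ratio of 1.43 between libraries of the same genotype, and 367 and 350.3 in WT, so that the WT values lay inside the T4V range. The log2 fold change of RPN9 was 0.03 with a 95% interval of -0.34 to 0.40. BNA7, a gene of kynurenine metabolism that faces RPN9 across 67 bases, had 25.0 and 21.2 RPKM in T4V and 67.9 and 61.6 in WT and fell by 1.45 on the log2 scale (limma adjusted p = 0.0011). RPN8, the partner of RPN11, and RPN7 had log2 fold changes of 0.10 and -0.01.

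RPN14, which carries the RPN prefix but encodes a chaperone of base assembly, had 9.98 and 12.7 RPKM in T4V and 10.4 and 10.9 in WT. Its log2 fold change of 0.08 had a 95% interval of -0.37 to 0.53.

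By class, 6 of the 14 core genes rose, 2 of the 6 RPT genes rose, and of the 12 RPN subunit genes 1 rose and 1 fell, where 11.7% of all genes rose and 6.25% fell. After median-of-ratios scaling 2 core genes, 1 RPT gene and 0 RPN subunit genes were called higher, and after quantile normalization 2, 0 and 0, with RPN10 lower in each. Over all genes, 8.61% and 7.63% were called higher under these scalings and 8.48% and 7.55% lower. The medians of their log2 fold changes were 0.19, 0.20 and 0.09, beside 0.07 over all genes tested. After median-of-ratios scaling they were 0.13, 0.13 and 0.03, beside 0.01 over all genes, and after quantile normalization 0.13, 0.12 and 0.01, beside -0.02. Within the core, the median was 0.15 for the alpha ring and 0.25 for the beta ring. The difference between classes was not tested, since the genes of a class are not replicates. The 27 genes with an exact PACE match had a median of 0.19, with 8 higher and 0 lower, and the 7 without one a median of 0.08, with 2 higher and 1 lower. The shares called higher were 29.6% and 28.6%, beside 11.7% of all genes. After median-of-ratios scaling 3 genes with the match and 1 without it were called higher, and after quantile normalization 2 and 1.

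**Figure D3:**
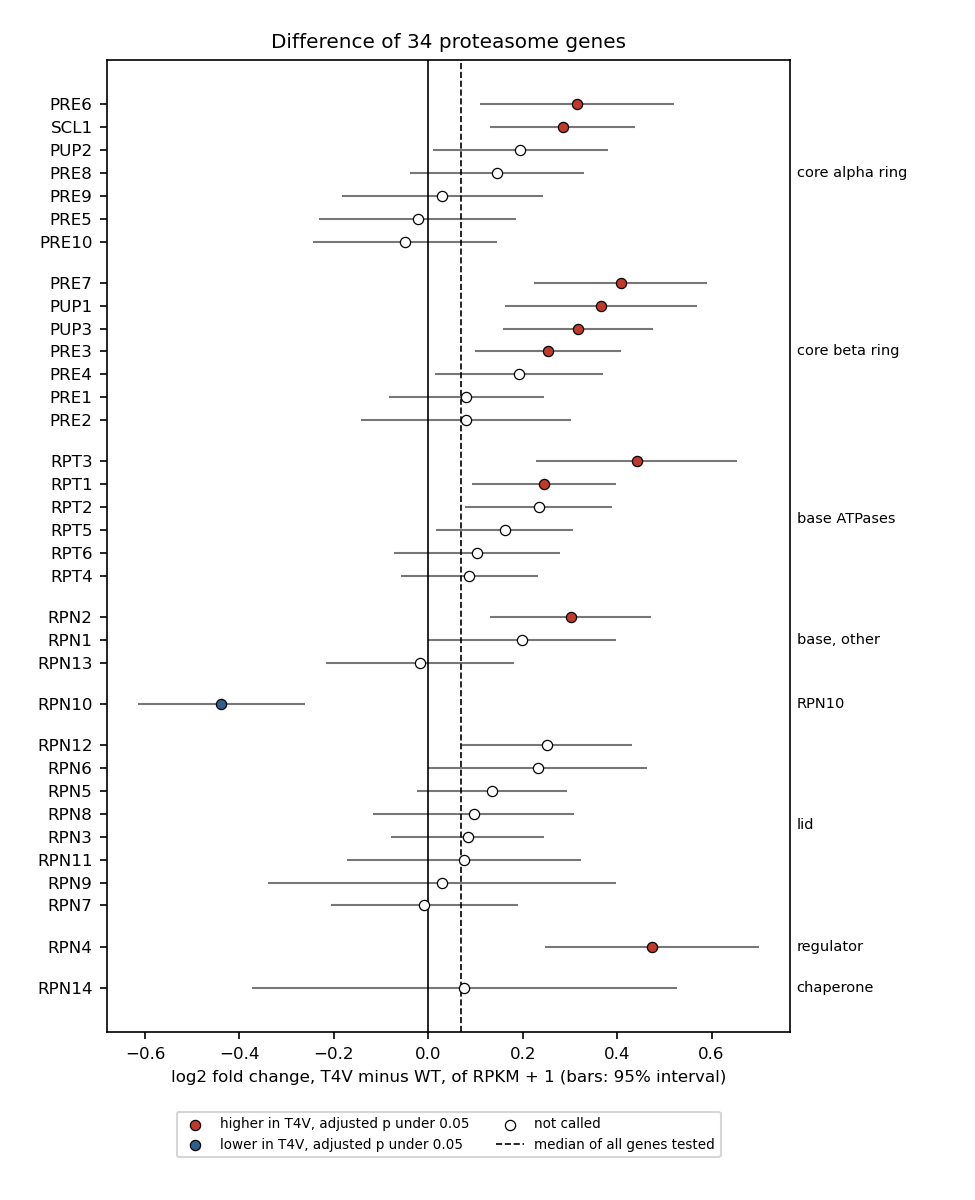
Log2 fold change of RPKM + 1, T4V minus WT, of the 34 proteasome genes by class, with the 95% interval from limma as a bar, red for genes called higher, blue for the gene called lower and white for the rest. The dashed line is the median of all genes tested at 0.07, and RPN10 at -0.44 stands apart from RPN4 at 0.47 and the 9 subunit genes that rose.

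The 34 genes lie on 13 chromosomes, and none overlaps another gene of the RefSeq annotation. The annotation leaves out 1078 of the table's genes, whose overlap with the 34 was not examined. Of 66 genes that lie next to them, 7 of the 65 tested, or 10.8%, rose and 5, or 7.69%, fell, shares near the 11.7% and 6.25% of all genes. After median-of-ratios scaling 5 rose and 8 fell, and after quantile normalization 5 and 7. Over all genes, 8.61% and 7.63% rose under these scalings and 8.48% and 7.55% fell. For 7 of the 27 genes with PACE, a neighbour that reads in the opposite direction held the same site in its own window. Among these neighbours was ALG13, which shares the site of RPT6 and encodes a subunit of an enzyme of protein glycosylation. ALG13 had 18.6 and 23.1 RPKM in T4V, against 35.9 and 33.7 in WT, and fell by 0.72 on the log2 scale (limma adjusted p = 0.0165), while RPT6 had 295 and 297 RPKM in T4V and 261 and 290.5 in WT. The other 6 such neighbours were NOP14, YPI1, YGL010W, YOL038C-A, GCD1 and YTH1, and none of them passed the test.

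Related genes were listed by name: the lid subunit gene SEM1, assembly factors, proteins bound to the proteasome, regulators of Rpn4, ubiquitin genes, shuttle and Cdc48 genes, and ubiquitin-conjugating enzymes and ligases. Of these 54 genes 12, or 22.2%, rose and 1, or 1.85%, fell, beside 11.7% and 6.25% of all genes tested, and their median log2 fold change was 0.19, beside 0.07. After median-of-ratios scaling 9 rose and after quantile normalization 8, with 1 lower in each. Over all genes, 8.61% and 7.63% rose under these scalings and 8.48% and 7.55% fell. SEM1, the lid subunit whose name falls outside the chosen pattern, had 121 and 135 RPKM in T4V, against 92.9 and 94.2 in WT. SEM1 rose by 0.45 ± 0.08 (SE) on the log2 scale, at a limma adjusted p of 0.0149.

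Of 9 assembly genes 3, or 33.3%, rose and 1, or 11.1%, fell, beside 11.7% and 6.25% of all genes. HSM3, a chaperone of the ATPase ring, had 89.0 and 97.1 RPKM in T4V, against 62.7 and 60.7 in WT, a log2 fold change of 0.58 and a limma adjusted p of 0.00698. PBA1 and ADD66, partners in a chaperone that guides the alpha ring, rose by 0.48 and 0.37. IRC25, part of another chaperone of the alpha ring, had 38.1 and 36.1 RPKM in T4V, against 51.0 and 51.2 in WT, and fell by 0.45 (limma adjusted p = 0.021). POC4, the partner of IRC25, had a log2 fold change of -0.04 and UMP1, which is enclosed in the core as it matures, one of -0.01, and neither passed the test. ADC17, listed in the table as TMA17, had a log2 fold change of 0.44 with an adjusted p of 0.054.

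Of 6 genes of proteins bound to the proteasome 2, or 33.3%, rose, beside 11.7% of all genes. UBP6, a deubiquitinase on the base, had 86.8 and 89.8 RPKM in T4V, against 69.5 and 64.2 in WT (log2 fold change 0.40, limma adjusted p = 0.0226). SPG5 rose by 0.45. Calls among the 6 numbered 2 after median-of-ratios scaling and 1 after quantile normalization, where 8.61% and 7.63% of all genes were higher. ECM29, BLM10, HUL5 and FUB1 did not pass the test. Of 7 genes that regulate RPN4 or the turnover of Rpn4 1, or 14.3%, rose, a share near the 11.7% of all genes. It was YAP1, the gene of a transcription factor of the oxidative stress response. YAP1 had 78.1 and 72.7 RPKM in T4V, against 57.3 and 61.1 in WT, and rose by 0.34 (limma adjusted p = 0.0422). PDR3, a transcription factor of drug resistance, had a log2 fold change of -0.48 with an adjusted p of 0.114, and the heat shock factor gene HSF1 one of -0.18. UBR2, MUB1 and RAD6, which ubiquitinate Rpn4, had log2 fold changes of 0.08, 0.22 and 0.00 and did not pass the test. The call of YAP1 was lost under both other scalings.

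Of 8 ubiquitin genes 2, or 25%, rose, beside 11.7% of all genes. UBI4, the polyubiquitin gene of stressed cells, had 364 and 370.3 RPKM in T4V, against 202 and 206 in WT, a log2 fold change of 0.85 ± 0.06 (SE) and a limma adjusted p of 0.000668. Its call was lost without T4V library A (0.0602) or B (0.0624), and held there with the filter applied again (0.00118 and 0.00149). RPL40A, RPL40B and RPS31, which fuse ubiquitin to ribosomal proteins, had log2 fold changes of 0.11, -0.04 and -0.09 and did not pass the test. These genes and UBI4 share near-identical ubiquitin units, which leaves the assignment of reads between them uncertain. DOA1, a gene that helps to maintain free ubiquitin, rose by 0.29 and lost its call under both other scalings.

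Of 9 shuttle and Cdc48 genes TMC1 alone rose, a share near the 11.7% of all genes. It had 298 and 306 RPKM in T4V, against 227 and 191 in WT (log2 fold change 0.53, limma adjusted p = 0.0118). CDC48, the segregase, and the shuttle factor genes RAD23 and DSK2 had log2 fold changes of 0.08, -0.18 and 0.05. Of 14 genes of conjugating enzymes and ligases 2, or 14.3%, rose, also near the share of all genes, namely UBC4 by 0.34 and CDC34 by 0.30. UBC4, which acts on short-lived and damaged proteins, had 773 and 832 RPKM in T4V and 634 in both WT libraries. UBC5, a close relative of UBC4 whose reads may be shared with it, had a log2 fold change of 0.53 with an adjusted p of 0.0955. CDC34, which acts in the cell cycle, lost its call under both other scalings.

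**Figure D4:**
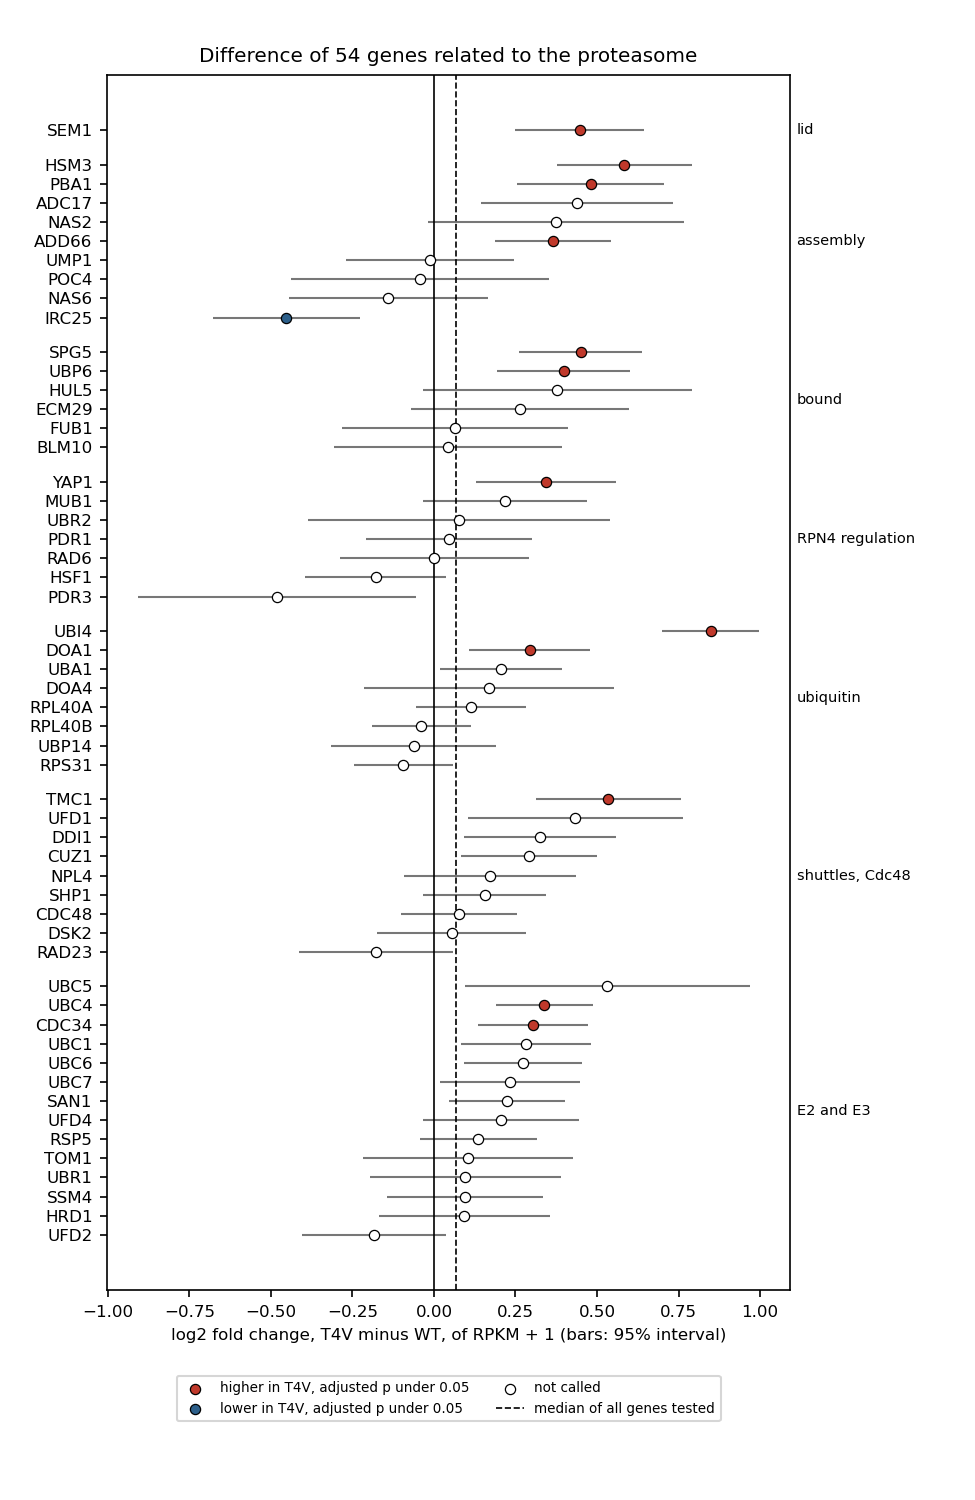
Log2 fold change of RPKM + 1, T4V minus WT, of 54 genes related to the proteasome, grouped by list, with 95% intervals from limma as bars. UBI4 at 0.85 is the highest, IRC25 at -0.45 is the 1 gene called lower, and the dashed line is the median of all genes tested.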

How the data were processed

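Poly(A) RNA of 2 T4V and 2 WT libraries was analysed. Bowtie2 and the sacCer3 build are named in the submitters' processing notes; no source used here gives the version, counting program, annotation or strand setting. The authors deposited RPKM for 7126 genes. Column names gave the genotype but no replicate number, so columns are called libraries A and B.

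Reads were worked back from the RPKM steps; 99.3% to 99.4% of genes under 10 reads came out within 0.1 of a whole number. Names and coordinates came from RefSeq R64, which matched 6048 genes.

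The test was limma 3.58.1 (R 4.3.3) on log2(RPKM + 1) with a variance trend, 2-sided. Genes entered it if at least 2 libraries reached an RPKM of 1, and calls were made where p, adjusted by Benjamini-Hochberg, was under 0.05. This scale understates the change of low genes. The fit was also run on simulated data, but every change put into them was larger than those called among the proteasome genes. That run therefore does not bear on changes of this size. Motif searches and plots used Python 3.11.15 with numpy 2.4.6, pandas 2.3.3 and matplotlib 3.10.9.

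Members, lists and motifs were chosen with earlier results of these data known. Every gene of the name pattern is named, with fuller values for called genes, RPN4 and the extremes of each class, and called genes of the related lists up to 4 per list; the other genes of the text were chosen after their values were seen. Alternatives changed pseudocount, filter, scaling, variance model, threshold and test, and left out each library.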

Additional observations from a re-analysis of the deposited data

How the results depend on the processing

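The columns carry no replicate numbers, but letters A and B; the differences A minus B of the genotypes had a Pearson r of -0.015 across 5935 genes, so the letters were not taken to pair libraries. A replicate block by letter, chosen after seeing the data, called 744 genes higher and 393 lower, 8 and 1 of the 34 proteasome genes and 13 and 1 of the related genes, and PRE3, RPT1, YAP1 and DOA1 lost their calls. No called gene that the text names changed sign under the alternatives run. The proteasome genes called higher, 10 by limma, were 4 after median-of-ratios scaling, 3 after quantile normalization, and 0 without the variance trend or at a threshold of 0.01, where 0 were called lower. With single libraries left out they were 0 to 3, and 0 to 1 were called lower. With the filter on low values applied again to the libraries left, an alternative chosen after seeing the data, they were 1 to 6, and RPN10 was called each time. The related genes called, 12 higher and 1 lower, were 2 and 0 without the trend and at a threshold of 0.01, 20 higher at a threshold of 0.1, and 21 and 2 with voom; with single libraries left out they were 0 to 10 higher and 0 lower, and 5 to 12 and 0 with the filter applied again. Over all genes, the 692 higher and 371 lower became 453 higher after quantile normalization, 265 and 134 without the trend and 234 and 130 at a threshold of 0.01, and voom called 578 lower. With single libraries left out they were 10 to 501 higher and 6 to 245 lower, and 404 to 652 and 250 to 321 with the filter applied again. The median log2 fold change moved to 0.089 and 0.085 for the 34 genes, 0.133 and 0.124 for the RPT genes and 0.026 and 0.013 for the RPN subunit genes after median-of-ratios scaling and quantile normalization, and ran from 0.057 to 0.152 for the RPN subunit genes with single libraries left out. The cause of these shifts was not tested. Depth limits RPN14 most among the 34 genes, at 42 to 68 reads, and among their neighbours YOL038C-A had 1 to 5 reads.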

Other observations

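PACE was also found in the windows of 44 genes of the table that are not proteasome genes by name. By limma 7 of them, or 15.9%, rose and 1, or 2.27%, fell, beside 11.7% and 6.25% of all genes tested. Their median log2 fold change was 0.15, beside 0.07. After median-of-ratios scaling and after quantile normalization 4 were called higher and 2 lower. Over all genes, 8.61% were higher and 8.48% lower under the first of these, and 7.63% and 7.55% under the second. MEF2 and YCR061W lost their calls under both scalings and AHC2 after quantile normalization. The 44 genes were picked by the letters of their windows. They include the 7 neighbours named above that share the site of a proteasome gene, and ALG13 is 1 of those neighbours. SGT2, a cochaperone gene of tail-anchored protein insertion, averaged 469 ± 3.67 RPKM in T4V and 384 ± 10.6 in WT (SD, n = 2 each), and rose by 0.29 on the log2 scale (limma adjusted p = 0.0202). AHC2 averaged 183 ± 8.75 RPKM in T4V and 145 ± 2.77 in WT (SD, n = 2 each) and rose by 0.34. MEF2, a mitochondrial translation factor gene, averaged 23.6 ± 2.68 RPKM in T4V and 15.8 ± 1.27 in WT (SD, n = 2 each) and rose by 0.55 (limma adjusted p = 0.0456). YCL042W averaged 479 ± 21.7 RPKM in T4V and 314 ± 6.46 in WT and rose by 0.61. YCR061W averaged 19.1 ± 0.169 RPKM in T4V and 11.8 ± 1.81 in WT and rose by 0.65. UBI4 and YAP1, described above, also hold the motif and were higher, and ALG13, described above, was the 1 gene that was lower. PDI1, the protein disulfide isomerase gene of the endoplasmic reticulum, averaged 1852 ± 71.3 RPKM in T4V and 1655 ± 26.0 in WT and did not pass the test (log2 fold change 0.16, adjusted p = 0.105).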
